A study of Mus musculus with 2 samples.

Results

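The collagen and laminin genes of mouse embryonic stem cells were examined in 2 RNA sequencing libraries, 1 for a control shRNA and 1 for an shRNA directed at the deubiquitinase USP21. The members were all symbols of the form Col, number, a, number (collagen alpha chains) or Lama, Lamb or Lamc with 1 digit (laminin chains), which gave 55 of 23889 gene symbols. Both libraries came from E14, an embryonic stem cell line, grown without feeder cells on gelatin in medium with 15% serum and 1000 U/ml LIF, and both were harvested 3 days after transfection. The labels do not say which USP21 shRNA was used, and each group is a single library, so no value has a replicate error and no test was made. The levels are FPKM, fragments divided by transcript length and by the number of mapped fragments, so that levels of different genes can be set side by side.

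Collagens are built from 3 alpha chains wound into a triple helix, which requires a glycine at the start of each triplet of residues (Gly-X-Y). Fibrillar collagens form the fibres of connective tissue. Basement membranes, the thin sheets under epithelia, rest on a laminin network and a collagen IV network. A laminin is a cross-shaped trimer of 1 alpha, 1 beta and 1 gamma chain. In the early mouse embryo and in embryonic stem cells, laminin and collagen IV are among the first matrix proteins made, and the epiblast is organized on a basement membrane.

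The difference between the collagen classes can be read in their coding sequences, so a stretch of a fibrillar chain (Col5a1, chromosome 2) and of a basement membrane chain (Col4a1, chromosome 8) is shown, each of 90 bases from the GENCODE M21 transcript (GRCm38) with the glycine codons in capitals. The first runs from codon 559 to codon 588 and the second from codon 212 to codon 241.
Col5a1: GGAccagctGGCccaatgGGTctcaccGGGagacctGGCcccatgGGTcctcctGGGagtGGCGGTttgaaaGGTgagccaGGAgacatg
Col4a1: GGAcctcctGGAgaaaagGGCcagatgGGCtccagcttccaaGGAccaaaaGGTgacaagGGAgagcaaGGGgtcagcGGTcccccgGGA
In Col5a1 a glycine codon opens every triplet of codons. In Col4a1 the pattern is broken from codon 224 by 2 codons without glycine and then resumes. Over the whole coding sequence the longest unbroken run had 338 repeats in Col5a1 and 40 in Col4a1, and runs of at least 3 repeats numbered 4 and 23. The 11 fibrillar chains had longest runs of 216 to 344 repeats and 2 to 5 runs each. The 6 collagen IV chains had longest runs of 39 to 66 repeats and 23 to 27 runs each. Many short runs also occurred in other classes, with 23 runs in Col16a1, 22 in Col17a1 and 21 in Col7a1. The longest runs of these 3 chains had 52, 55 and 75 repeats.

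**Figure D1:**
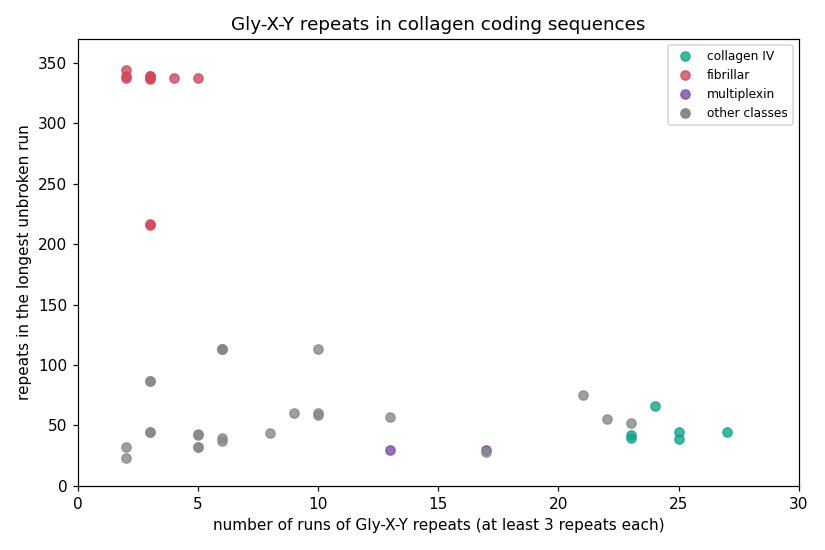
Each point is 1 of the collagen genes, with the number of runs of Gly-X-Y repeats in its coding sequence on the x axis and the length of its longest run, in repeats, on the y axis. The fibrillar chains lie at the top left with longest runs of 216 repeats or more, and the collagen IV chains at the bottom right with 23 to 27 shorter runs. Col16a1, Col17a1 and Col7a1, of other classes, lie near the collagen IV chains.

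The label of the cells was checked first. All 8 embryonic stem cell markers were high in both libraries, from 76.5 FPKM for Klf4 with the USP21 shRNA to 1849 FPKM for Dppa5a with the control shRNA, with Pou5f1 at 868.3 and 752.3 FPKM and Nanog at 467.1 and 257.7 FPKM. All 8 were lower with the USP21 shRNA, with a median log2 ratio of -0.26. After the correction for transcript length and GC content described below the median was -0.20, again with all 8 lower. Of all 11927 genes with an FPKM of at least 1 in either library, 50.4% were higher with the USP21 shRNA. Usp21 itself had 26.2 FPKM with the control shRNA and 3.49 FPKM with the USP21 shRNA. Of 9 fibroblast markers, Lum and Prrx1 were listed at 0 in both libraries and Dcn was at 0.021 and 0.026 FPKM. S100a4 had 0.24 and 0.30 FPKM. Only Thy1, at 17.3 and 5.29 FPKM, and Pdgfrb, at 1.65 and 1.14 FPKM, reached an FPKM of 1, and the list summed to 19.3 and 6.89 FPKM.

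Basement membrane genes held most of the summed collagen and laminin FPKM in both libraries. The 17 basement membrane members (6 collagen IV and 11 laminin chains) summed to 277.2 FPKM with the control shRNA and 350.05 FPKM with the USP21 shRNA, which was 80.3% and 78.2% of the total over the 55 members. The 11 fibrillar members summed to 7.12 and 8.01 FPKM, or 2.06% and 1.79%. The basement membrane sum was thus 38.9 times the fibrillar sum in the control library and 43.7 times in the other. The multiplexin Col18a1, a collagen of the basement membrane zone that carries heparan sulfate, made up most of the rest. Of the 55 members, 14 reached an FPKM of 1 in either library, 23 peaked between 0.1 and 1, and 18 stayed under 0.1, among them Col28a1, listed at 0 in both. In bulk RNA, fewer cells making a transcript and less RNA per cell cannot be told apart.

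**Figure D2:**
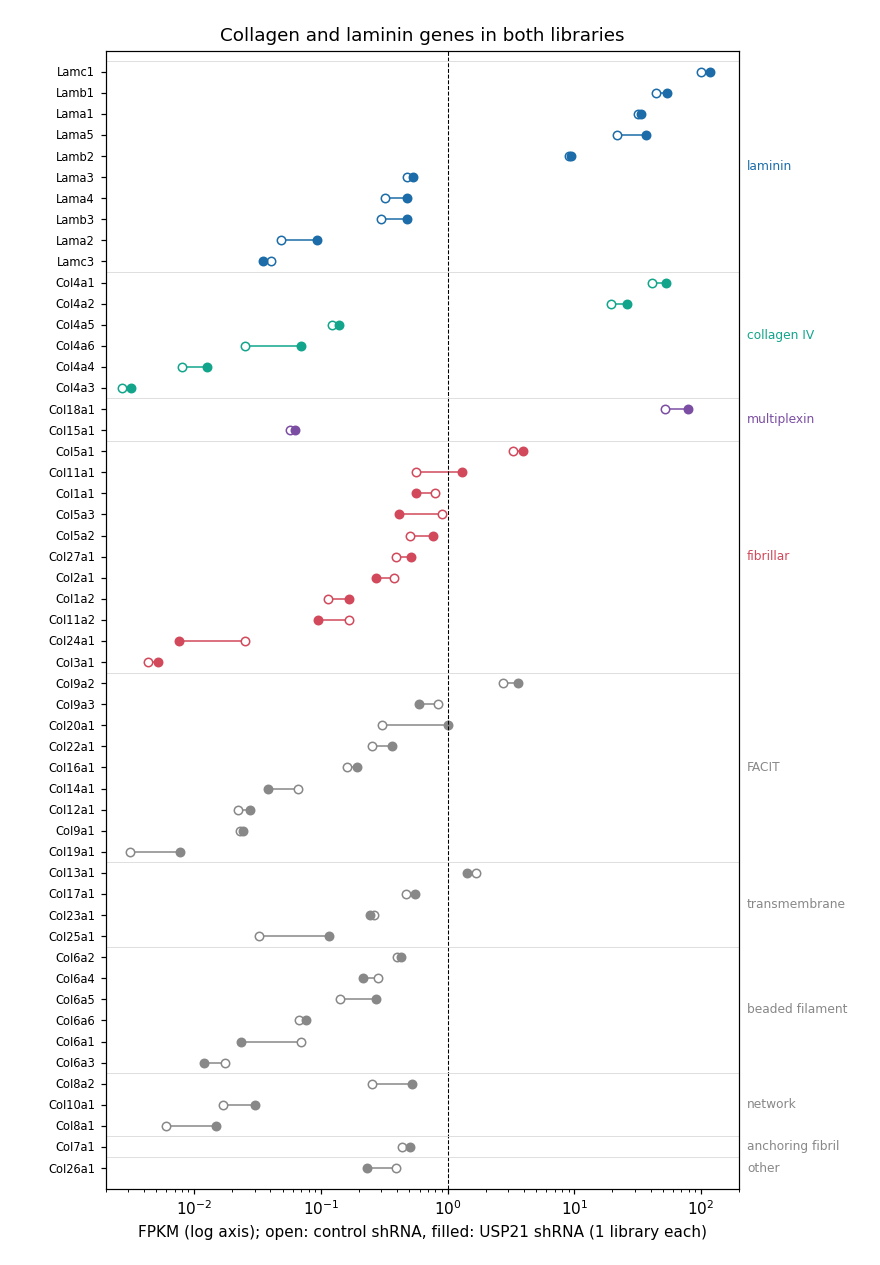
FPKM on a log axis is plotted for the members, grouped by class, with the control shRNA library as open and the USP21 shRNA library as filled points (1 library each). Col28a1, at 0 in both libraries, and 1 member that is not reported here are not drawn, and the dashed line marks an FPKM of 1. The right end of the plot is held by 5 laminin chains, Col4a1, Col4a2 and Col18a1, while the fibrillar chains lie at 3.91 FPKM or less.

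Among the laminin gamma chains, Lamc1, the gamma chain shared by most laminins, was the highest of all members, with 99.1 FPKM in the control library and 116.7 FPKM in the USP21 shRNA library. Lamc3 was at 0.041 and 0.035 FPKM. The log2 ratio of the USP21 shRNA to the control library, with a pseudocount of 0.1 FPKM added to each value, was 0.24 for Lamc1. Lama3 and Lamb3, an alpha and a beta chain found mainly in epithelia, were low. Lama3 had 0.48 FPKM in the control library and 0.53 FPKM in the other, and Lamb3 had 0.30 and 0.48 FPKM.

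Among the alpha chains, which carry the main sites for cell receptors, Lama1 and Lama5 were high and the others low. Lama1, the alpha chain of the first embryonic laminin, had 32.04 FPKM with the control shRNA and 33.3 FPKM with the USP21 shRNA. Lama5, the alpha chain of the laminin that is widespread in later epithelia and is used to culture pluripotent cells, had 21.6 and 36.7 FPKM. The log2 ratios were 0.056 and 0.76, so Lama5 made up 40.3% of the summed Lama1 and Lama5 level in the control library and 52.4% in the other. The order of these alpha chains was thus reversed between the libraries. Lama4 had 0.32 and 0.48 FPKM. Lama2, the alpha chain of muscle basement membranes, had 0.049 and 0.093 FPKM.

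Among the beta chains, Lamb1, the partner of Lama1 and Lama5 in embryonic laminins, had 44.2 FPKM in the control library and 53.8 FPKM in the USP21 shRNA library. Lamb2, the beta chain typical of neuromuscular and kidney basement membranes, had 9.09 and 9.35 FPKM. Their log2 ratios were 0.28 and 0.040. Summed by chain type, alpha chains had 54.5 and 71.07 FPKM and beta chains 53.6 and 63.7 FPKM. Lamc1 alone was above either sum in both libraries, although a trimer holds 1 chain of each type.

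Of the collagen IV chains, the widely used pair Col4a1 and Col4a2 was high and the pairs of specialized basement membranes were low. Col4a1 had 40.8 FPKM with the control shRNA and 53.3 FPKM with the USP21 shRNA, and Col4a2 had 19.5 and 26.1 FPKM. The log2 ratios of 0.39 and 0.42 of Col4a1 and Col4a2 differed by 0.031, and the ratio of Col4a1 to Col4a2 was 2.09 in the control library and 2.05 in the other. Of the pairs found mainly in kidney, lung and muscle basement membranes, Col4a3 had 0.0027 and 0.0032 FPKM and Col4a4 had 0.0080 and 0.013 FPKM. Col4a5 had 0.12 and 0.14 FPKM, and Col4a6 had 0.025 and 0.069 FPKM.

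Each of these collagen IV pairs is arranged head to head on opposite strands. In GENCODE M21 (GRCm38), Col4a1 (chromosome 8, 11198423 to 11312826, minus strand) and Col4a2 (chromosome 8, 11312805 to 11449287, plus strand) overlap by 22 bases at their 5′ ends. These bases are shown because both genes hold them, on opposite strands. RefSeq places the starts at the same bases of GRCm38.p6, and the overlap on the plus strand is chr8:11312805-11312826.
Col4a1 and Col4a2 overlap: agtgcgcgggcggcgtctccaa
The overlap is short beside transcripts of 6615 and 6450 bases. Col4a3 and Col4a4 lie 71 bases apart on chromosome 1, and Col4a5 and Col4a6 lie 1308 bases apart on chromosome X. Whether the libraries kept strand is not given in the sources used here.

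The fibrillar collagens were low throughout, the highest being Col5a1, a chain that helps to start fibrils, at 3.27 FPKM with the control shRNA and 3.91 FPKM with the USP21 shRNA (log2 ratio 0.25). Col11a1, the related chain of cartilage fibrils, had 0.56 and 1.29 FPKM. The chains of the main fibres of skin, bone and cartilage were under an FPKM of 1 in both libraries. Col1a1 had 0.80 and 0.56 FPKM, and its partner Col1a2 had 0.11 and 0.17 FPKM. Col2a1 of cartilage had 0.38 and 0.27 FPKM, and Col3a1 of skin and vessels had 0.0043 and 0.0052 FPKM. The remaining ones differed in either direction, with Col5a3 at 0.90 and 0.41 FPKM, Col5a2 at 0.51 and 0.77 FPKM, and Col27a1 at 0.39 and 0.51 FPKM. Col11a2 had 0.17 and 0.095 FPKM and Col24a1 had 0.025 and 0.0076 FPKM. In all, 6 fibrillar members were higher and 5 lower with the USP21 shRNA.

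Of the 8 basement membrane members that reached an FPKM of 1, all of them in both libraries, 8 were higher with the USP21 shRNA, with a median log2 ratio of 0.34. Over all 11927 genes past the same limit the median was 0.0031 and 50.4% were higher. Among the 1775 of these genes with transcripts in the length range of the 8 members, the median was 0.17 and 73.5% were higher. With the trend on transcript length and GC content removed by a lowess fit, the median of the 8 members was 0.15, with 5 higher and 3 (Lama1, Lamb2 and Lamc1) lower. On this scale 49.9% of the 11378 genes past the limit with a reference transcript were higher, and 51.9% of the 1775 genes in the length range. Only 2 fibrillar members, Col5a1 and Col11a1, passed, and their median of 0.67 rests on Col11a1, which passed through the USP21 shRNA library alone and so had to be higher there. The difference between the medians of basement membrane and fibrillar members was -0.33 with this limit, 0.085 with Col11a1 left out by a limit on the mean FPKM of both libraries, and 0.27 with no limit, so its sign depends on which low genes are kept. These 8 basement membrane members lay at 9.09 FPKM or more and the fibrillar members at 3.91 FPKM or less, but the other 9 basement membrane members were under an FPKM of 1 as well. Over all 17 basement membrane members the median level was 0.48 FPKM with the control shRNA and 0.53 FPKM with the USP21 shRNA, close to the 0.39 and 0.41 FPKM of the 11 fibrillar members, so the larger basement membrane sum came from a few high genes.

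The largest log2 ratios among the members belonged to low genes. The members past a 2-fold difference and a level of 1 in either library were 2 of 14, Col11a1 with a log2 ratio of 1.08 and Col20a1 with 1.46, both higher with the USP21 shRNA, against 2.3% of all genes in that direction. None was 2-fold lower, against 2.03% of all genes. Col20a1, a collagen that associates with fibrils, had 0.30 and 1.002 FPKM, so it too passed through the USP21 shRNA library alone. Past 1.5-fold were 5 members, all higher, against 7.77% of all genes in that direction, and none was 1.5-fold lower, against 6.46%. Among them were Lama5, Col18a1, Col11a1 and Col20a1.

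Col18a1, the precursor of the angiogenesis inhibitor endostatin, had 51.9 FPKM in the control library and 78.9 FPKM in the USP21 shRNA library, a log2 ratio of 0.60. It was the second highest member after Lamc1. Col15a1, the other multiplexin, was at 0.057 and 0.063 FPKM. Col9a2, a chain of a collagen that decorates cartilage fibrils, had 2.75 and 3.61 FPKM, while its partner Col9a3 had 0.84 and 0.60 FPKM. Col13a1, a transmembrane collagen of cell junctions, had 1.68 and 1.41 FPKM and was the single member of the 14 that was lower, with a log2 ratio of -0.24. The 6 beaded filament chains (collagen VI) were at 0.43 FPKM or less, the highest being Col6a2. Col7a1 of the anchoring fibrils had 0.43 and 0.50 FPKM. Of the network collagens Col8a2 was highest, with 0.25 and 0.52 FPKM, and Col26a1 had 0.39 and 0.23 FPKM.

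The values of the lowest members can rest on few fragments, although no counts were available to check this. Among the 1439 genes above 0 and under an FPKM of 0.1 in both libraries, the ratio of the USP21 shRNA to the control shRNA value was most often 1.24, which is the ratio that equal fragment numbers give when the control library is that much deeper. Of the 17 members in this range, Col3a1, Col4a3 and Col12a1 lay within 0.06 of this ratio on the log2 scale. A higher value of these members with the USP21 shRNA therefore need not stand for more fragments.

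Collagen and laminin transcripts are long, and in these libraries the log2 ratio changed with transcript length. Split into 5 groups by length, the genes past a level of 1 had median log2 ratios from -0.16 in the shortest group to 0.17 in the longest, and 11 of the 14 members were in the longest group (4801 bases or more). Among the 1775 genes in the length range of the 8 basement membrane members, 12.8% were 1.5-fold higher with the USP21 shRNA. After the lowess correction, the basement membrane members above 0 included Lama5 (0.42), Col4a2 (0.23), Col4a1 (0.18) and Lamb1 (0.12). Of the other members, Col20a1 (1.35), Col11a1 (0.88), Col18a1 (0.45) and Col9a2 (0.38) were above 0 and Col13a1 (-0.27) and Col5a1 (-0.015) below. Lamc1 was at -0.0048, Lamb2 at -0.12 and Lama1 at -0.25. The direction of Lama1, Lamb2, Lamc1 and Col5a1 was therefore not the same on both scales, whereas Lama5 exceeded Lama1 by 0.70 before and by 0.67 after the correction.

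**Figure D3:**
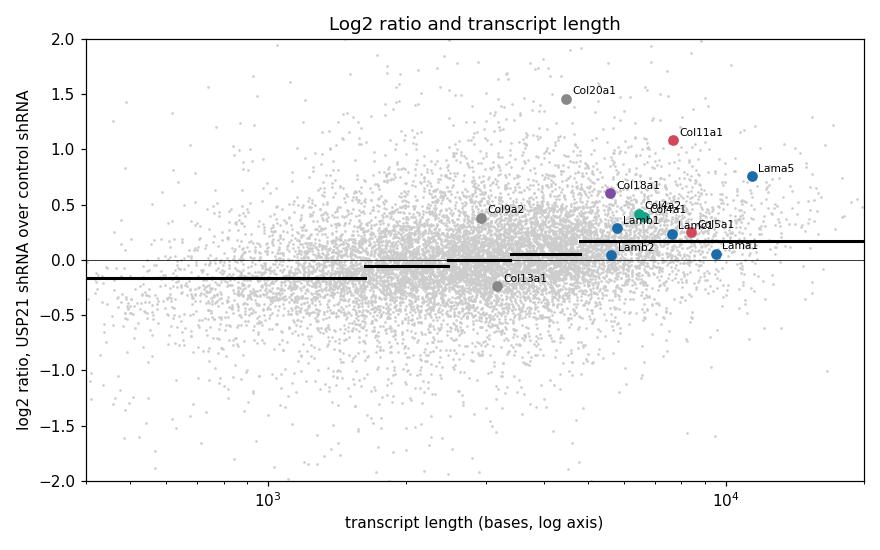
Each grey point is a gene with an FPKM of at least 1 in either library, with transcript length in bases (log axis) on the x axis and the log2 ratio of USP21 shRNA to control shRNA on the y axis. Genes outside the axis ranges are not drawn. Black lines are medians of 5 length groups, rising from -0.16 to 0.17, and coloured points are the members but 1 that is not reported here. Lama5 and Col18a1 lie well above the line of their group and Lama1 and Lamb2 below it.

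**Figure D4:**
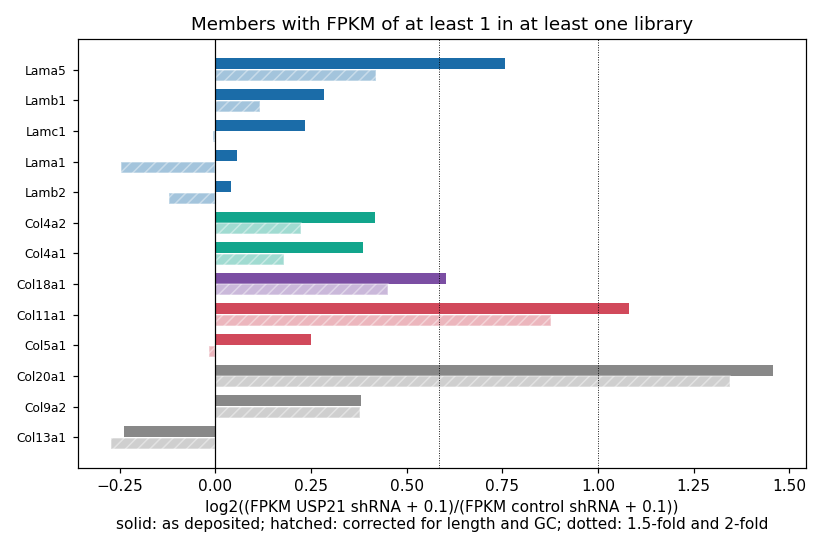
Bars give the log2 ratio of the members that reached an FPKM of 1, but for 1 that is not reported here, as deposited (solid) and after correction for transcript length and GC content (hatched), with dotted lines at 1.5-fold and 2-fold (1 library per group, so there are no error bars). Lama5 has the longest bars among the basement membrane members drawn, while the bars of Lama1, Lamb2, Lamc1 and Col5a1 cross 0 after correction.

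The member transcripts shared little sequence with other genes in GENCODE M21. Of the 31-base words of the 14 member transcripts, at most 1.10% (Col20a1) occurred in a transcript of another gene, and 10 of the 14 shared none. The effect of shared reads on the deposited values was not tested.

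Genes of other basement membrane proteins were mostly higher with the USP21 shRNA as well. Of 15 listed genes, 10 reached an FPKM of 1, of which 9 were higher and 1 lower with the USP21 shRNA. The median log2 ratio was 0.45 (0.33 after correction for length and GC content, with 8 of the 10 higher). For this list and those below, the shares over all genes past the limit were 50.4% higher (49.9% after correction) and 2.3% at least 2-fold higher. Among genes in the length range of the 8 basement membrane members, 73.5% were higher (51.9% after correction). Hspg2, which encodes perlecan, had 33.4 FPKM with the control shRNA and 67.3 FPKM with the USP21 shRNA. Sparc, a collagen-binding protein abundant in parietal endoderm, had 94.9 and 191.1 FPKM. These were the members of the list past 2-fold, with log2 ratios of 1.01 each, and after correction they had 0.62 and 1.09. Nid2, a nidogen that bridges laminin and collagen IV, had 78.7 and 96.6 FPKM. Its relative Nid1 had 33.4 and 33.6 FPKM.

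Of 13 genes for receptors of laminin and collagen, 7 reached an FPKM of 1 and 7 of these were higher. Their median log2 ratio was 0.41 (0.40 after correction, with 6 of the 7 higher). Itga3, the integrin alpha chain that binds the laminins containing the Lama5 or Lama3 chain, had 29.1 and 59.9 FPKM, a log2 ratio of 1.04. Bcam, a receptor for the Lama5 chain, had 83.6 and 109.05 FPKM, and Dag1, which encodes dystroglycan, had 45.4 and 75.5 FPKM. Itga6 had 52.3 and 59.5 FPKM and Itgb1, the common beta partner, had 47.7 and 63.6 FPKM. Of the listed collagen receptors, Itga2 and Itga11 stayed under 0.042 FPKM, Itga1 had 0.027 and 0.16 FPKM, and Itga10 had 0.31 and 0.41 FPKM. Ddr2 was at 0.58 and 0.62 FPKM, while Ddr1 had 5.44 and 7.73 FPKM.

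The enzymes and chaperones that fold and process collagen had no common direction. Of 29 listed genes 28 had values and 20 reached an FPKM of 1, of which 12 were higher and 8 lower, with a median log2 ratio of 0.12. After correction the median was 0.054, with 9 higher of the 16 that had a reference transcript. In both libraries 19 passed, since Leprel1, at 0.81 and 1.01 FPKM, passed through the USP21 shRNA library alone and had to be higher there. The highest were P4hb, the beta subunit of prolyl hydroxylase, with 291.2 and 259.0 FPKM, Ppib, with 137.0 and 114.7 FPKM, and Serpinh1, the collagen chaperone HSP47, with 62.4 and 76.9 FPKM. None passed 2-fold. P4ha2, a catalytic subunit of prolyl hydroxylase, had 24.2 and 12.8 FPKM. Of 9 matrix proteases and inhibitors 8 reached an FPKM of 1, 6 of them in both libraries, with 5 higher and 3 lower. Their median log2 ratio was 0.24 (0.20 after correction, again with 5 of the 8 higher). Timp1, an inhibitor of matrix metalloproteases, had 19.9 and 26.7 FPKM, Mmp11 had 19.9 and 21.6 FPKM, and Mmp14 had 12.8 and 17.5 FPKM. The 3 lower were Timp2 at 3.33 and 1.67 FPKM, Mmp2 at 5.58 and 4.24 FPKM, and Mmp15 at 3.21 and 2.88 FPKM. Mmp9, a protease that cuts collagen IV, was past 2-fold at 0.40 and 1.28 FPKM and passed through the USP21 shRNA library alone. Timp3, at 0.88 and 1.15 FPKM, passed in the same way, so Mmp9 and Timp3 had to be higher there.

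**Figure D5:**
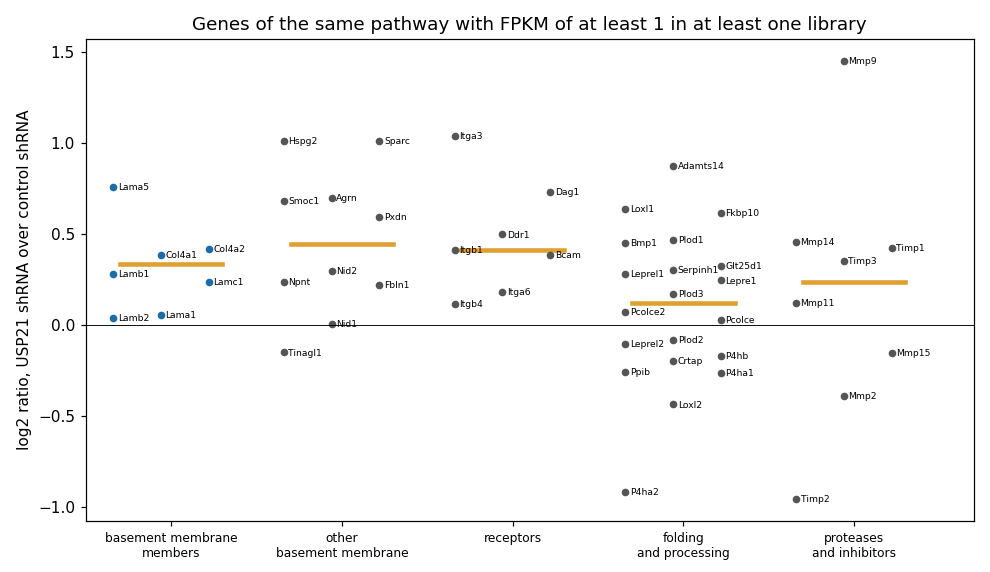
Points are the log2 ratios of USP21 shRNA to control shRNA (1 library each) of genes with an FPKM of at least 1 in either library, in 5 lists, and horizontal bars are list medians. Of the 8 basement membrane members 1 is not drawn but counts in the median. The medians are 0.34 for the 8 basement membrane members, 0.45 for other basement membrane proteins and 0.41 for receptors, against 0.12 for folding and processing genes, where 8 of 20 are below 0. After correction for length and GC content (not drawn) these medians are 0.15, 0.33, 0.40 and 0.054, the last over 16 genes.

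Markers of primitive and parietal endoderm, cells that secrete much laminin and collagen IV, were not higher as a list. Of the 10 listed, 8 reached an FPKM of 1, of which 3 were higher and 5 lower with the USP21 shRNA. The median log2 ratio was -0.20 (-0.23 after correction for length and GC content, with 1 of the 8 higher). The list summed to 62.1 FPKM in the control library and 52.1 FPKM in the other. Gata6 had 8.60 FPKM in the control library and 10.8 FPKM in the other, Cubn had 6.83 and 7.06, Dab2 had 23.1 and 16.4, and Sox7 had 4.68 and 1.97. Since each group is 1 library, a difference in the state of these cultures and an effect of the USP21 shRNA cannot be told apart for any gene given here.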

How the data were processed

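RNA of 2 samples of E14 cells was sequenced, 1 per group, on an Illumina instrument, as the series' design text states. For each library the authors deposited a table of gene symbols, each with its FPKM. The submitters' processing notes name CASAVA 1.8.2, TopHat2 2.0.14, Cufflinks 2.2.1 and the genome build mm9. Annotation, strand and any further scaling are not given in the sources used here. The files hold no counts, so depth is unknown beyond the ratio of low values, and no interval or floor was computed.

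FPKM summed to 613617 in the control and 543206 in the USP21 shRNA library. Log2 ratios used a pseudocount of 0.1, and genes needed an FPKM of 1 in either library to be counted. With 1 library per group no test was made. Transcript lengths, GC content and coding sequences came from GENCODE M21 (GRCm38), 1 transcript per gene with the longest coding sequence, found for 55 members and 95.4% of 11927 genes. GRCm38 is not the build named for the files, so positions come from the annotation alone. The correction was a lowess fit (span 0.3) on length and then on GC content. It was checked on simulated data with a straight-line trend on log2 length, and no trend on GC content was simulated.

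Members and lists were chosen with earlier results of these data known. One member is counted but not reported here by name. Otherwise, named are all collagen IV, laminin and fibrillar chains, other members past 1.5-fold or highest in their class, and from each other list the 3 highest and those past 2-fold. Any other gene named was chosen after its values were seen. Python 3.11.15, numpy 2.4.6, pandas 2.3.3, statsmodels 0.14.6 and matplotlib 3.10.9 were used.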

Additional observations from a re-analysis of the deposited data

How the results depend on the processing

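A value was taken as moved when it changed by 0.2 or more on the log2 scale, since no replicate spread exists. The basement membrane median stayed between 0.15 and 0.51 under all 12 alternatives. The fibrillar median (0.67) was 0.38 with a pseudocount of 1, 0.43 after the length and GC correction, 0.25 with a limit of FPKM 0.1 or with a limit on the mean FPKM (the latter chosen after seeing the data), and 0.012 with no limit. The difference of the medians (-0.33) was -0.050 with a pseudocount of 1, and it reversed to 0.085 with a limit of FPKM 0.1 or on the mean FPKM and to 0.27 with no limit. With a limit of FPKM 5 no fibrillar member was left. The count past 2-fold (2) was 0 with a pseudocount of 1, with a limit of FPKM 5 and with the limit on the mean, and 1 after the correction. The count past 1.5-fold (5, all higher) was 9 with a limit of FPKM 0.1, of which 8 were higher and 1 (Col5a3, -0.96) lower. It was 3 with a limit of FPKM 5, with the limit on the mean and after the correction, all higher. Of the 70 log2 ratios of the 14 members under 5 alternatives, 58 kept their direction and moved by less than 0.2, 8 moved by more, and those of Col5a1 (-0.015), Lama1 (-0.25), Lamb2 (-0.12) and Lamc1 (-0.0048) reversed after the correction. Rescaling to equal sums raised the log2 ratios of the 14 members by 0.16 to 0.26 and gave 3 members past 2-fold. No paired analysis was possible because the groups are 1 library each.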
